A study of Homo sapiens with 8 samples.

Results

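The 9 genes described here build and load MHC class I molecules: the heavy chains HLA-B, HLA-C, HLA-E and HLA-F, the light chain B2M, the peptide transporter genes TAP1 and TAP2, the loading factor TAPBP (tapasin) and the transactivator NLRC5. They were taken by symbol from the 58302 gene IDs of the deposited count tables, and each matched 1 ID. All 9 passed the filter on low counts that left 18240 genes for testing. HLA-F passed it only through the postconfluent libraries, where it was higher.

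Class I molecules show peptides from inside the cell to cytotoxic T cells and natural killer cells. The heavy chain pairs with beta-2-microglobulin in the endoplasmic reticulum, the TAP1-TAP2 transporter pumps peptides in from the cytosol, and tapasin holds the empty heavy chain at the transporter until a peptide binds. Most of these genes are known targets of interferon, through interferon-stimulated response elements (ISRE), and of NLRC5, which is recruited to the SXY promoter module by the RFX, CREB/ATF and NF-Y factors. Intestinal epithelial cells carry class I on their surface, and HLA-E is known as the ligand of the NKG2A receptor.

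The cells were Caco-2/15, a colon cancer line that takes on enterocyte-like features once the culture is confluent. The study asked how the H2A.Z histone isoforms relate to gene expression over that change. A Flag tag had been placed by CRISPR-Cas9 on 1 copy of H2AFZ (the Z1flag line, heterozygous H2AFZ-Flag) or of H2AFV (the Z2flag line, heterozygous H2AFV-Flag). Each line was sampled subconfluent and at 7 days postconfluence, with 2 libraries in each of the 4 groups, which the titles number as experiments Exp1 and Exp2 (replicates 1 and 2 here). All 8 libraries come from tagged cells, and an untagged line was not analysed here. The sources used here do not say whether a line is 1 clone or whether replicates are separate cultures, so p-values measure only the spread between these samples, which may be technical. Gene counts ranged from 17063826 to 40881682 per library. The share of reads overlapping no gene ranged from 20.6% to 32%, and it was highest in the Z1flag libraries numbered 1. Ambiguous reads, which overlap more than 1 gene, made up 5.39% to 5.69% in subconfluent and 6.17% to 7.86% in postconfluent libraries, and reads aligned to several places made up 6.59% to 6.89% and 7.84% to 10.3%. Both shares were higher after confluence, and their part in the values of the heavy chains, which share sequence, was not tested.

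In GENCODE v29 on GRCh38, 7 of the 9 genes lie in the MHC on chromosome 6. HLA-F (ENSG00000204642) is at chr6:29722775-29738528 and HLA-E (ENSG00000204592) at chr6:30489467-30494205, both on the plus strand. HLA-C (ENSG00000204525) at chr6:31268749-31272130 and HLA-B (ENSG00000234745) at chr6:31269491-31357188 are on the minus strand. Their gene models overlap: they share 35 bases of exon, which is 1.15% of HLA-B and 1.4% of HLA-C exon sequence. TAP2 (ENSG00000204267) at chr6:32821833-32838780, TAP1 (ENSG00000168394) at chr6:32845209-32853978 and TAPBP (ENSG00000231925) at chr6:33299694-33314387 also lie on the minus strand. B2M (ENSG00000166710) is at chr15:44711487-44718877 and NLRC5 (ENSG00000140853) at chr16:56989485-57083531, both on the plus strand.

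The RefSeq promoter table (GRCh38.p14) held 7 of the 9 genes, all but HLA-E and NLRC5. The 250 bases before the start of 5 of them are printed because they cover both classical heavy chains of the set, the light chain, and the transporter pair of which 1 gene was called. They are reference sequence, not the alleles of these cells, and each reads 5′ to 3′ on the gene's own strand. Capitals mark matches, on either strand, to GGGNNTTNC (kappaB-type), GAAANNGAA (ISRE-type), TGACG (X2-type, of the SXY module) and CCAATCA (Y-box-type, of the SXY module). The windows are chr6:31357180-31357429 and chr6:31272093-31272342 (minus strand), chr15:44711267-44711516 (plus strand), and chr6:32853705-32853954 and chr6:32838740-32838989 (minus strand).
HLA-B: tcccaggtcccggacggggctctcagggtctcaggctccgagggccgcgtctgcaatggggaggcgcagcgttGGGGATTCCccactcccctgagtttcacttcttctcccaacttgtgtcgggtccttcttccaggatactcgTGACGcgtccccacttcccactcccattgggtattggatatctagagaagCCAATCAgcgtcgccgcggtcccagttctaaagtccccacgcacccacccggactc
HLA-C: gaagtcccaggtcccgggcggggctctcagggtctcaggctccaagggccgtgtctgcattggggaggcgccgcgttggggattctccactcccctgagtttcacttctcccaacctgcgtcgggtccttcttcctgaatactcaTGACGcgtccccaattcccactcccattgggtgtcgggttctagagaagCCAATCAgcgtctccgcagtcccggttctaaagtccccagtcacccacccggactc
B2M: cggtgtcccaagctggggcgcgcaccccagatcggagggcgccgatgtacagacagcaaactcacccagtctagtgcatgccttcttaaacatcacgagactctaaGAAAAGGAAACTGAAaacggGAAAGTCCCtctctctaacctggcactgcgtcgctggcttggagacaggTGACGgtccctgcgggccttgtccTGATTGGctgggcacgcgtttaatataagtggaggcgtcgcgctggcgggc
TAP1: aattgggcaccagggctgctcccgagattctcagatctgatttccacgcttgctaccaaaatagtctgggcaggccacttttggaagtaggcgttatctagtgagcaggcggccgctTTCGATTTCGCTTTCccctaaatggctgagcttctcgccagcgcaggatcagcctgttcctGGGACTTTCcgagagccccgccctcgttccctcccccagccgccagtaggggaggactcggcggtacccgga
TAP2: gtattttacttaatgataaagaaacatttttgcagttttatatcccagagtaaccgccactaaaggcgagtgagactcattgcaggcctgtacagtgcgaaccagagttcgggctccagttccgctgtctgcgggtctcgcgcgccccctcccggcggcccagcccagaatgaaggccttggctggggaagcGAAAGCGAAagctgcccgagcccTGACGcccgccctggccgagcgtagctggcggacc

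Over 35116 RefSeq promoter windows of the same 250 bases, 14.2% held the kappaB-type motif, 6.88% the ISRE-type, 21.2% the X2-type and 6.62% the Y-box-type. With position -1 as the last base before the start, HLA-B and HLA-C both had the X2-type and Y-box-type matches at nearly the same distance. The X2-type match began at -106 in HLA-B and at -105 in HLA-C, and the Y-box-type match spanned -56 to -50 in both. HLA-B also had a kappaB-type match from -177 to -169, and the HLA-C window had no match to those letters. B2M held all 4 motifs, with 2 overlapping ISRE-type matches from -144 to -130. TAP1 held 2 overlapping ISRE-type matches from -133 to -119 and a kappaB-type match from -72 to -64, and TAP2 an ISRE-type match from -58 to -50 and an X2-type match from -35 to -31. HLA-F held an ISRE-type and a Y-box-type match, and TAPBP 2 overlapping kappaB-type and 2 overlapping ISRE-type matches. A match describes letters in the window and does not show that a factor binds there.

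**Figure D1:**
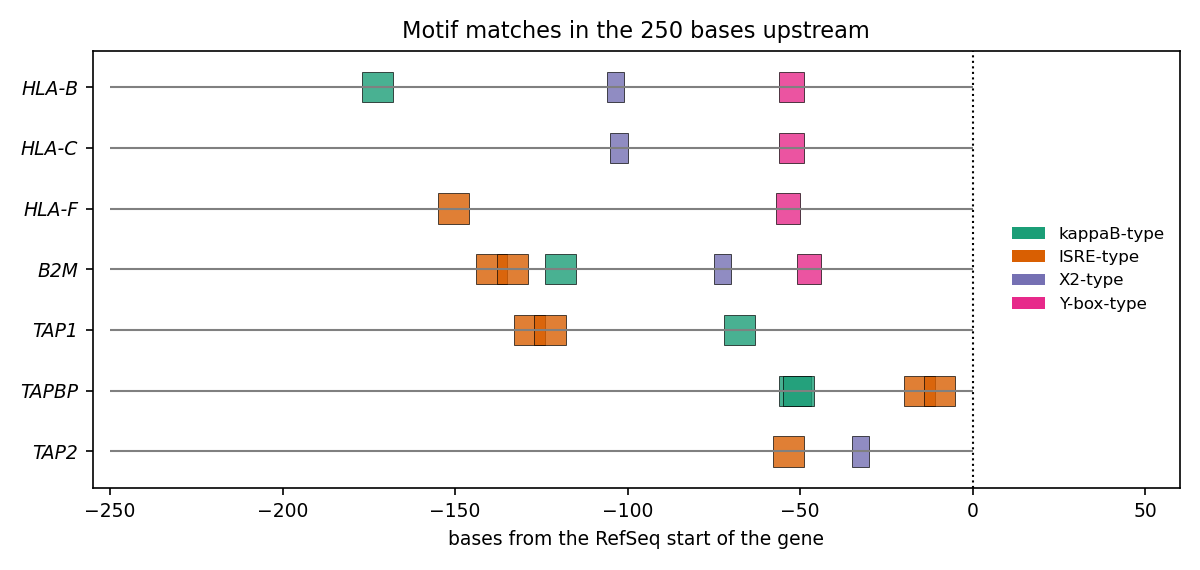
Matches to the 4 motifs in the 250 bases before the RefSeq start of the 7 genes in the table; the horizontal axis is the distance from the start in bases, and each coloured box spans 1 match on either strand. The Y-box-type match lies between -57 and -45 in HLA-B, HLA-C, HLA-F and B2M, and TAP2 has an ISRE-type and an X2-type match.

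After confluence 8 of the 9 genes rose in each Flag line and TAP2 was not called. In Z1flag cells 8 of 9 were called higher and 0 lower, where 40.5% of all tested genes were called (21.3% higher and 19.1% lower). In Z2flag cells the counts were again 8 and 0, against 37.6% of all tested genes called (18.3% and 19.3%). Over both lines they were 8 and 0, against 55.4% called (27.8% and 27.5%), so a large part of all genes moved with confluence. Without HLA-F, 7 of 8 were higher and 0 lower in each line. The median log2 fold change of the 9 genes was 1.90 in Z1flag and 2.39 in Z2flag cells. Without HLA-F it was 1.845 and 1.966, and over all tested genes it was 0.04 and -0.05. At an unadjusted p under 0.05, and by DESeq2 and limma voom, 0 of the 9 genes were lower. For 8 genes the 4 postconfluent libraries all lay above the 4 subconfluent ones, as for 25.1% of tested genes. Levels are CPM, counts divided by library size after TMM scaling for library composition, and calls are edgeR quasi-likelihood tests with a Benjamini-Hochberg adjusted p under 0.05. In these bulk samples, more cells of a kind and more RNA per cell cannot be told apart.

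**Figure D2:**
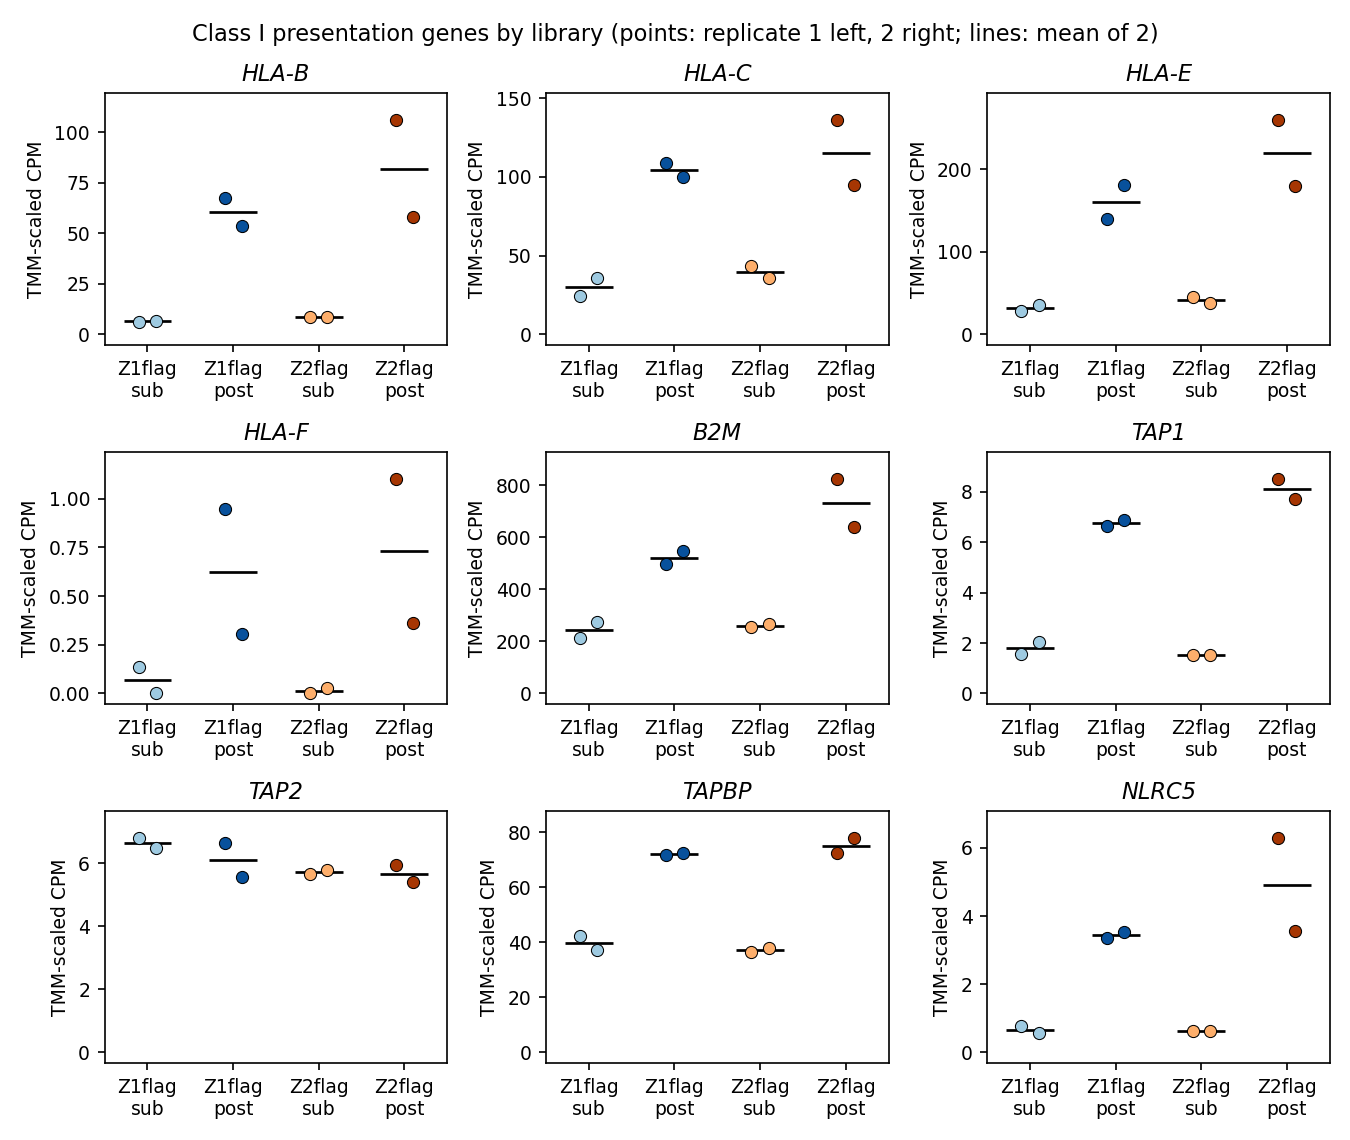
TMM-scaled CPM (vertical axis, linear, its own range per gene) of the 9 genes in the 4 groups; each point is 1 library (replicate 1 left, replicate 2 right) and each line the mean of 2. The postconfluent points lie above all subconfluent points for every gene shown except TAP2, which runs from 5.41 to 6.8 CPM over the 8 libraries.

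HLA-B, a classical heavy chain that presents peptides to CD8 T cells, rose by the largest factor of the 3 heavy chains detected in every library. It stood at 6.08 and 6.79 CPM in subconfluent Z1flag and at 8.41 and 8.5 CPM in subconfluent Z2flag libraries. After confluence it stood at 67.5 and 53.5 CPM in Z1flag and at 106 and 58 CPM in Z2flag libraries. The groups did not overlap, and the lowest postconfluent library was far above the highest subconfluent one. The mean went from 7.45 ± 1.20 to 71.3 ± 23.9 CPM (SD, n = 4 libraries over both lines), a log2 change of 3.23 ± 0.30 (SE; adjusted p = 0.000138, edgeR) in Z1flag and 3.28 ± 0.30 (SE; adjusted p = 0.000135, edgeR) in Z2flag cells.

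HLA-C, a classical heavy chain that is also the main ligand of the KIR receptors of natural killer cells, started from a higher level and rose less. Its subconfluent levels were 24.7 and 35.6 CPM in Z1flag and 43.4 and 36.1 CPM in Z2flag libraries, and its postconfluent levels were 109 and 99.9 CPM and then 136 and 94.7 CPM. All 4 postconfluent libraries were above all 4 subconfluent ones. The log2 change was 1.79 ± 0.25 (SE; adjusted p = 0.000666, edgeR) in Z1flag and 1.54 ± 0.25 (SE; adjusted p = 0.00141, edgeR) in Z2flag cells.

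The balance between these heavy chains shifted. Counts of HLA-B divided by counts of HLA-C in the same library were 0.246 and 0.191 in subconfluent Z1flag, and 0.194 and 0.235 in subconfluent Z2flag cells. After confluence the ratio was 0.62 and 0.536 in Z1flag and 0.779 and 0.613 in Z2flag cells. The mean log2 ratio rose by 1.55, with no overlap between states (exact two-sided permutation test over 4 against 4 libraries, p = 0.0286, the smallest this design can give, and 0.0286 adjusted over the 3 ratios computed). The 3 ratios were chosen after the levels had been seen, so this p-value adds no support to the shift. The sources used here do not say how reads that fit both genes were counted. Of the 50-base words in HLA-B exons 2.48% also occur in HLA-C. Summed to 1 row, HLA-B and HLA-C rose on the log2 scale by 2.20 in Z1flag and 2.13 in Z2flag cells. Both genes were called higher alone, so their sum tests neither the shift nor the shared reads.

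HLA-E, a non-classical heavy chain with few variants, followed the classical genes. It stood at 27.8, 35.2, 44.9 and 38.5 CPM in the subconfluent and at 140, 181, 259 and 180 CPM in the postconfluent libraries, Z1flag before Z2flag. The groups lay far apart, and the spread was widest among postconfluent Z2flag libraries. The log2 change was 2.35 ± 0.25 (SE; adjusted p = 0.000232, edgeR) in Z1flag and 2.39 ± 0.25 (SE; adjusted p = 0.000235, edgeR) in Z2flag cells. In subconfluent libraries HLA-E and HLA-C had nearly equal counts, with an HLA-E to HLA-C ratio of 0.986 to 1.12. After confluence the ratio was 1.29 to 1.9. This pair too was chosen after the levels had been seen.

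**Figure D3:**
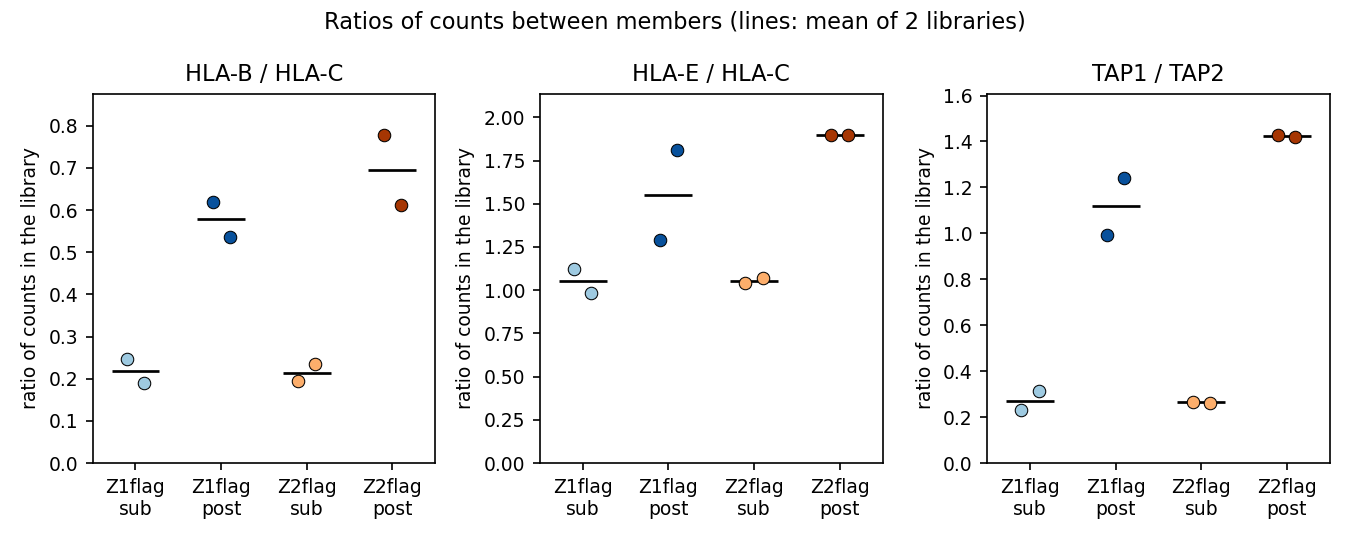
Ratio of the counts of 2 genes within the same library (vertical axis, linear from 0) in the 4 groups, with 1 point per library and a line at the mean of 2, for HLA-B to HLA-C, HLA-E to HLA-C and TAP1 to TAP2. In all 3 panels the postconfluent points lie above the subconfluent ones, and TAP1 to TAP2 moves from at most 0.312 to at least 0.994.

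HLA-F, a non-classical heavy chain, was near the limit of detection before confluence. Its counts were 3 and 0 in subconfluent Z1flag and 0 and 1 in subconfluent Z2flag libraries, and 25, 6, 20 and 6 in the postconfluent ones, Z1flag before Z2flag. The summed count was 4 before and 57 after, and 3 of the 4 came from subconfluent Z1flag replicate 1. Scaled for depth, that is a ratio of 22.2 (95% exact binomial interval 8.22 to 84.3, counting error only) over both lines, 10.9 (3.39 to 55.5) in Z1flag and 58 (9.54 to 2380) in Z2flag cells. The edgeR adjusted p was 0.0376 in Z1flag and 0.00821 in Z2flag cells. The call within Z1flag was lost without postconfluent replicate 1 (adjusted p = 0.224) or subconfluent replicate 2 (0.208) of that line, without postconfluent Z2flag replicate 1 (0.0543), and without both Z1flag libraries numbered 1 (0.117). The call within Z2flag was lost without its postconfluent replicate 1 (0.0903) or subconfluent replicate 1 (0.0673). HLA-F also shares 28.5% of its exon sequence with genes on the opposite strand, among them HLA-F-AS1 with 250 counts over all libraries.

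B2M, the light chain that pairs with class I heavy chains, was the most abundant of the 9 genes in both states. It stood at 212, 273, 254 and 267 CPM before and at 495, 546, 822 and 637 CPM after confluence, Z1flag before Z2flag. All postconfluent libraries were above the subconfluent ones. The mean went from 251 ± 27.5 to 625 ± 144 CPM (SD, n = 4). The log2 change was 1.10 ± 0.21 (SE; adjusted p = 0.00313, edgeR) in Z1flag and 1.49 ± 0.22 (SE; adjusted p = 0.000897, edgeR) in Z2flag cells. Without subconfluent Z1flag replicate 1, the Z1flag change was 0.91 and missed the threshold (adjusted p = 0.0524).

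The subunits of the peptide transporter behaved differently. TAP1 stood at 1.58, 2.02, 1.52 and 1.52 CPM in subconfluent and at 6.62, 6.89, 8.49 and 7.7 CPM in postconfluent libraries. TAP1 rose on the log2 scale by 1.90 ± 0.30 (SE; adjusted p = 0.00108, edgeR) in Z1flag and 2.41 ± 0.30 (SE; adjusted p = 0.000448, edgeR) in Z2flag cells. Its counts were 35 to 64 before and 128 to 175 after confluence. On the opposite strand PSMB8-AS1 overlaps 9.49% of TAP1 exon sequence and had 7 counts over all libraries.

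TAP2, the other subunit, stood at 6.8, 6.49, 5.68 and 5.8 CPM before and at 6.66, 5.56, 5.95 and 5.41 CPM after confluence, with overlapping groups. Its log2 change was -0.12 ± 0.26 (SE; adjusted p = 0.74, edgeR) in Z1flag and -0.01 ± 0.26 (SE; adjusted p = 0.972, edgeR) in Z2flag cells. Its sign turned positive in both lines under upper-quartile scaling, still without a call. Missing the threshold does not show that TAP2 was the same in both states. The TAP1 to TAP2 ratio of counts went from 0.232-0.312 to 0.994-1.43 (mean log2 change 2.24). The pair was chosen after the levels of both genes had been seen, so the ratio restates their changes. Exons of another gene model on the same strand cover 32.3% of TAP2, and that gene had 0 counts in all libraries.

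TAPBP, which bridges the transporter and the empty heavy chain, rose by less than the other called genes and with the least spread. Its levels were 42.4, 37.2, 36.6 and 38 CPM before and 71.8, 72.5, 72.5 and 77.8 CPM after confluence. The postconfluent libraries all lay above the subconfluent ones. The log2 change was 0.86 ± 0.18 (SE; adjusted p = 0.00415, edgeR) in Z1flag and 1.01 ± 0.18 (SE; adjusted p = 0.00211, edgeR) in Z2flag cells. Without subconfluent Z1flag replicate 2 the Z1flag change was 0.76 (adjusted p = 0.0529).

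NLRC5, the class I transactivator, was low in every library. It stood at 0.766, 0.572, 0.618 and 0.619 CPM before and at 3.37, 3.52, 6.28 and 3.55 CPM after confluence. Postconfluent Z2flag replicate 1 was well above the other 3. The log2 change was 2.36 ± 0.41 (SE; adjusted p = 0.00176, edgeR) in Z1flag and 2.98 ± 0.40 (SE; adjusted p = 0.000638, edgeR) in Z2flag cells. The counts behind these levels were 15 to 26 before and 59 to 114 after confluence.

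**Figure D4:**
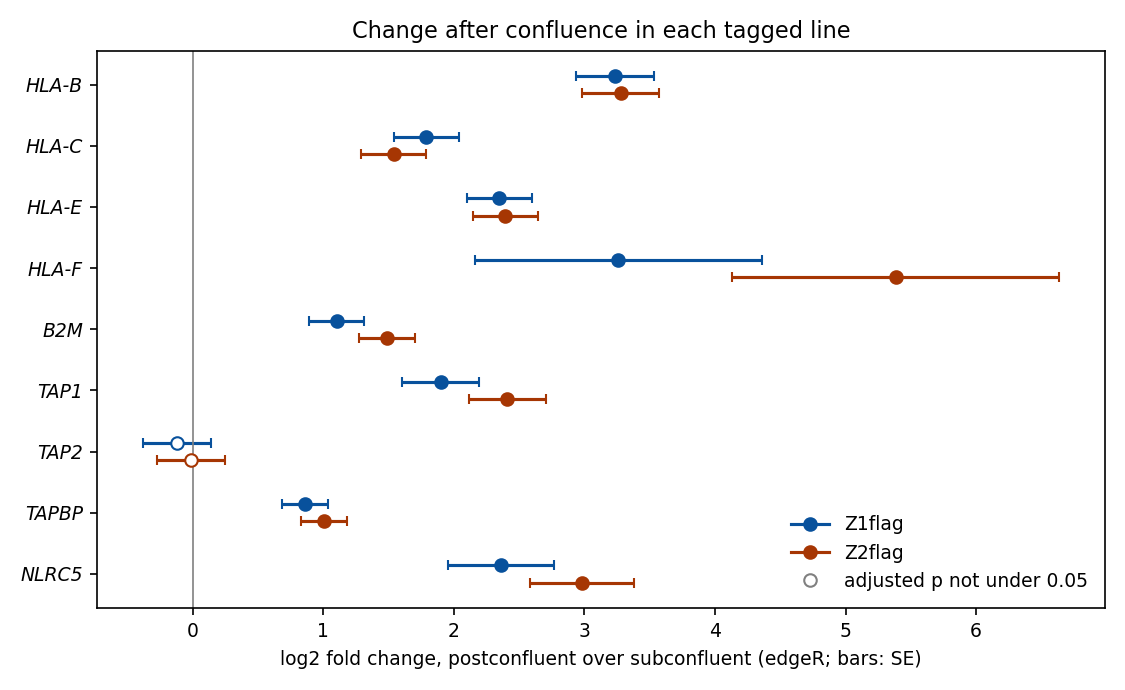
Log2 fold change after confluence (horizontal axis, postconfluent minus subconfluent, edgeR estimate) of the 9 genes in Z1flag and Z2flag cells, with bars of 1 SE and open points where the adjusted p was not under 0.05. The estimates of the lines lie furthest apart for HLA-F (3.26 in Z1flag, 5.38 in Z2flag) and then NLRC5 (2.36 and 2.98), and TAP2 lies at -0.12 and -0.01.

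The lines did not differ detectably in the change of any of these genes. The test of the difference (the change in Z2flag minus the change in Z1flag) called 0 of the 9, with 0 of 18240 genes called in all, 0 of the 9 at an unadjusted p under 0.05 (smallest 0.225), and 0 by DESeq2 and limma voom. Differences ran from -0.25 for HLA-C to 0.62 for NLRC5 on the log2 scale, and 2.12 for HLA-F. The smallest adjusted p was 0.8, for B2M (difference 0.39). With 2 libraries a group this does not show that the lines respond alike. Postconfluent Z2flag replicate 1 was the highest of the 4 postconfluent libraries for 7 genes (HLA-B, HLA-C, HLA-E, HLA-F, B2M, TAP1 and NLRC5), and over both lines the 8 genes were called without it.

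Per kilobase of exon sequence (GENCODE v29), the order of levels in subconfluent cells was B2M (41.4 CPM per kb), HLA-C (14), HLA-E (12.3), TAPBP (7.63), HLA-B (2.44), TAP2 (0.969), TAP1 (0.345), NLRC5 (0.052) and HLA-F (0.0094). HLA-C and HLA-E overlapped in that state, with ranges of 9.87 to 17.3 and 9.33 to 15.1 CPM per kb, and no other neighbours did. After confluence the order was B2M (103), HLA-E (63.8), HLA-C (43.9), HLA-B (23.4), TAPBP (14.6), TAP1 (1.55), TAP2 (0.923), NLRC5 (0.337) and HLA-F (0.156). HLA-E (47.1 to 87 CPM per kb) then overlapped with both B2M (81.4 to 135) and HLA-C (37.8 to 54.4). HLA-B passed TAPBP without overlap. TAP1 (1.38 to 1.77) passed TAP2 (0.847 to 1.04). The TAP2 level was also divided by only the 4326 exon bases that it does not share with another gene on its strand. That gave 1.25 to 1.54 CPM per kb, which overlapped with TAP1. This value applies only if reads on the shared bases were not counted, and the sources used here do not say.

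By profile over the 8 libraries, the most similar of 11067 genes with a mean of at least 5 CPM were CNTNAP1, PLEKHH3, PRSS22, PRKAB2 and JMY. The root mean square difference from the median log2 profile of the 9 genes was 0.121 for CNTNAP1 and 0.158 for JMY. HLA-C (0.204) and TAP1 (0.207) were the genes of the set nearest to their own median profile, and TAP2 (0.961) was the furthest. This describes likeness over 8 libraries and has no test.

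Around these genes, the pathway was described by lists of genes, read against the 27.8% of tested genes called higher and 27.5% called lower over both lines. Among other class I-like heavy chains, 6 of 9 tested (of 14 listed) were higher and 1 lower. AZGP1, 1 of the 6, passed the filter only through the postconfluent libraries, and without it 5 of 8 were higher. ULBP2, a stress ligand of the NKG2D receptor, went from 2.69 ± 0.21 to 14.2 ± 5.19 CPM (SD, n = 4; log2 change 2.35, edgeR adjusted p = 6.2e-05). FCGRT, the neonatal Fc receptor that also pairs with B2M, rose by 0.92 over both lines (edgeR adjusted p = 0.00332) and was not called within Z2flag (0.46, 0.222). MR1, which presents vitamin metabolites, rose by 1.55 over both lines (0.00448), with 2.41 in Z1flag and 0.69 in Z2flag cells, where it was not called (0.293). Postconfluent Z1flag replicate 1 had the most MR1 (17.6 CPM), postconfluent Z2flag replicate 1 (4.41 CPM) lay below a subconfluent library (4.56 CPM), and without both Z1flag libraries numbered 1 the change was 0.98. ULBP3, another NKG2D ligand, fell by 0.86 on the log2 scale over both lines (0.0102) and was called in neither line alone.

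Of the immunoproteasome and PA28 genes, which supply peptides, 2 of 5 tested were higher and 2 lower, counts too small to set apart from the shares over all tested genes. PSMB10, an immunoproteasome subunit, rose by 1.23 (edgeR adjusted p = 0.00463). POMP, the proteasome assembly factor, fell by 0.98 (0.000552), and PSME2, a PA28 subunit, fell by 0.52 (0.0252). The PSME2 call was lost under upper-quartile scaling (adjusted p = 0.106), under the stricter filter, and on leaving out any 1 of these libraries: from Z1flag, postconfluent replicate 1 or subconfluent replicate 2, and from Z2flag, replicate 2 of either state; each left 1 gene lower. PSMB9, the immunoproteasome subunit encoded beside TAP1, was singled out after its values were seen and passed the filter only through the postconfluent libraries. It stood at 0.114 ± 0.067 CPM before and 1.11 ± 0.52 CPM after confluence. It was 1 of the 2 genes called higher, and without it 1 of 4 was higher and 2 lower.

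Of 7 peptide-trimming genes, 2 were higher and 4 lower, with a median of -0.67. ERAP2, an aminopeptidase of the endoplasmic reticulum, rose from 14.1 ± 1.66 to 37.0 ± 10.9 CPM (log2 change 1.40, edgeR adjusted p = 0.000391), and the cytosolic peptidases LAP3 and NRDC fell by 0.83 (0.000617) and 0.67 (0.00137). Of 7 chaperones of peptide loading, 1 was higher (HSPA5, the BiP chaperone, 1.12, 0.00904) and 1 lower (UGGT1, which checks glycoprotein folding, -0.74, 0.000893). HSPA5 was not called within Z1flag (0.78, 0.16): postconfluent Z1flag replicate 1 stood at 389 CPM, below the 461 to 486 CPM of the subconfluent libraries, and the other 3 postconfluent libraries at 1128 to 1483 CPM. Its change over both lines was 0.62 without postconfluent Z1flag replicate 2. The higher count of the chaperones was 3 without postconfluent Z1flag replicate 1 and under upper-quartile scaling. Of 9 tested class I turnover genes, 3 were higher and 3 lower. SYVN1, an ubiquitin ligase of endoplasmic reticulum degradation, rose by 1.38 (0.00016), and SPPL2A and UBE2J2 fell by 0.79 (0.00127) and 0.75 (0.00235). Their higher count was 1 without subconfluent Z1flag replicate 1, or without either subconfluent Z2flag replicate.

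RFX5, a DNA-binding subunit of the RFX complex of the SXY module, rose from 34.5 ± 5.21 to 59.6 ± 2.20 CPM (log2 change 0.79, edgeR adjusted p = 0.000917). Of the 8 tested genes of that module 1 was higher and 5 lower, but the lower count was 0 under upper-quartile scaling, and with the replicate block it was 3. It was 2 on dropping the second postconfluent library of Z1flag or of Z2flag, or the first subconfluent Z1flag library. It was 1 on dropping the first subconfluent Z2flag library. It was 0 on dropping the second subconfluent library of Z1flag or of Z2flag, or the first postconfluent Z2flag library. In all, 5 of the 16 alternatives gave a lower count of 0. NFYB (-0.41, 0.0226) and NFYC (-0.43, 0.031), which encode NF-Y subunits, were among the 5 genes called lower. CIITA, the class II counterpart of NLRC5, had 9 counts over all libraries and was not tested.

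Among 17 interferon and NF-kB signalling genes, 9 were higher and 3 lower over both lines. The higher count ran from 6 to 10 under the alternatives. Within Z1flag, 3 were higher and 2 lower, where 21.3% and 19.1% of all tested genes were. Within Z2flag, 6 were higher and 3 lower, against 18.3% and 19.3%. IRF1, a transcription factor of the interferon response, stood at 12.2, 16.1, 12.5 and 15.7 CPM before and at 22.3, 64.9, 78.9 and 63.4 CPM after confluence (log2 change 1.98, edgeR adjusted p = 0.000339). Postconfluent Z1flag replicate 1 was far below the other 3. IRF2, a related factor, rose by 1.10 (0.000727). NFKB1, the gene of the p105/p50 subunit of NF-kB, fell from 73.9 ± 4.92 to 26.1 ± 4.62 CPM (log2 change -1.50, 3.71e-05).

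Among interferon-stimulated genes, 11 of 15 tested (of 20 listed) were higher and 2 lower, with a median of 1.44. Of these 15, IFIT2, GBP1, GBP2, GBP3 and CXCL11 passed the filter only through the postconfluent libraries, where they had to be higher to be tested. Among the other 10 genes 7 were higher and 2 lower, with a median of 1.14. IFIT1 rose by 2.92 (edgeR adjusted p = 0.000372) and IFIT3 by 2.76 (0.000129), both of the interferon-induced IFIT family. Postconfluent Z1flag replicate 1 had the most of both, 20.1 CPM of IFIT1 and 21 CPM of IFIT3. The other postconfluent libraries stood at 4.3 to 9.32 and 6.28 to 10.5 CPM. IFIT2 of the same family stood at 0.281 to 0.547 CPM before and 4.8 to 12.8 CPM after confluence. OAS3, an RNA sensor, fell by 0.75 (0.00253). The lower count was 1 on dropping the second subconfluent Z1flag or the second postconfluent Z2flag library. Class II presentation genes were mostly near 0, with 3 of 12 tested and 2 higher, the protease CTSS (2.02, 0.00421) and HLA-DMA, which passed the filter only through the postconfluent libraries, while HLA-DRA had 4 counts over all libraries.

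**Figure D5:**
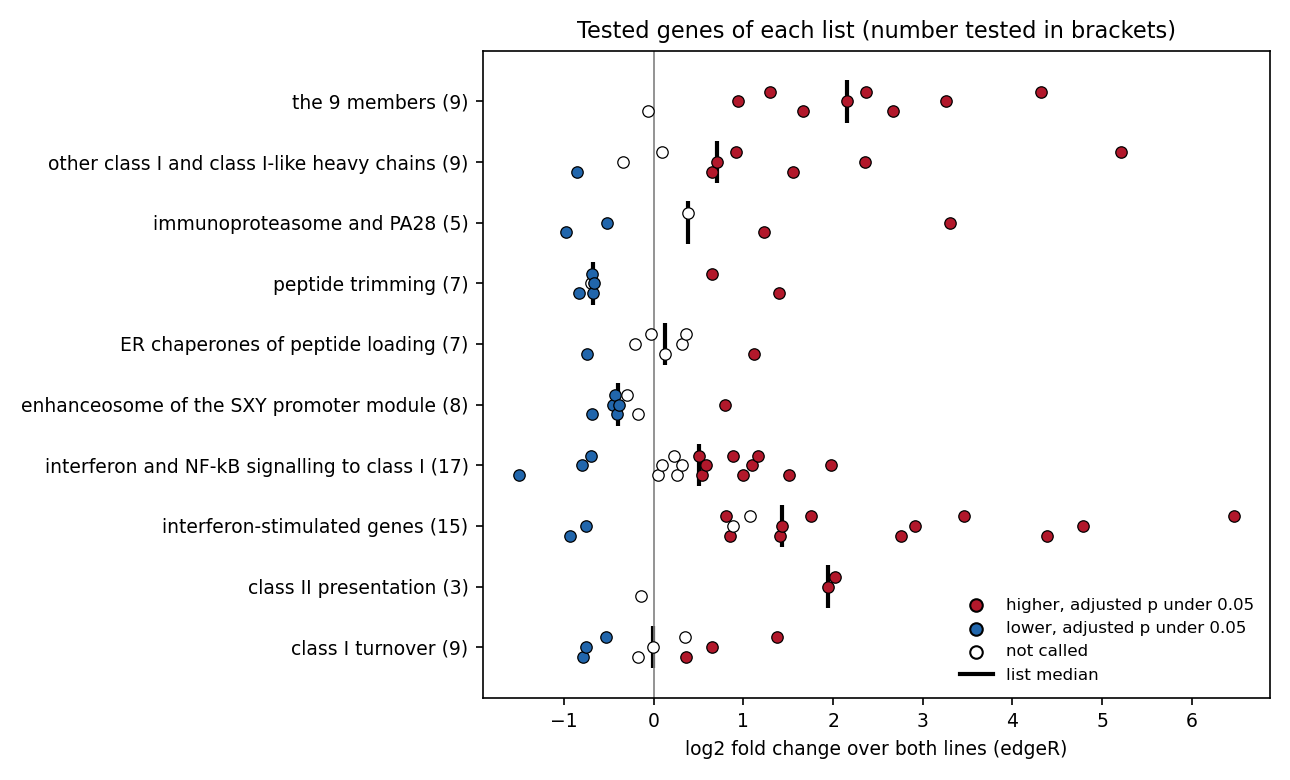
Log2 fold change over both lines (horizontal axis, postconfluent minus subconfluent) of the tested genes in the 9 genes and each pathway list, with 1 point per gene (red called higher, blue called lower, open not called) and a black line at the median. Points of interferon-stimulated genes lie mostly to the right of 0 (median 1.44), and those of the peptide-trimming list on both sides (median -0.67).

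Cell type markers were read over whole lists, against the 27.8% of tested genes called higher and 27.5% called lower over both lines. The 10 intestinal epithelium markers summed to 11717 to 13933 CPM before and 4435 to 7789 CPM after confluence, and KRT8 and KRT18 made up most of that sum: their means were 6755 and 4132 CPM before and 2325 and 1101 CPM after. Of the 9 tested epithelium markers 5 were higher (EPCAM, CDH1, CDX2, KRT20 and LGALS4) and 3 lower (KRT8, KRT18 and HNF4A). KRT20 and LGALS4 passed the filter only through the postconfluent libraries, and without them 3 of 7 were higher and 3 lower. The higher count of the whole list ran from 3 to 5 under the alternatives. Among others, it was 3 without subconfluent Z1flag replicate 1, without either subconfluent Z2flag library, or without both Z1flag libraries numbered 1. The 12 leukocyte markers summed to 10.9 to 27.4 CPM before and 23.8 to 42.4 CPM after confluence, with CD2 and MS4A1 at 0 in all libraries. Of 6 tested leukocyte markers 3 were higher. Under the alternatives that count ran from 1 to 5, and it was 5 without subconfluent Z1flag replicate 2. CD3E and CD3D passed the filter only through the postconfluent libraries, and without them 2 of 4 were higher. The 8 fibroblast markers summed to 183 to 233 CPM before and 72.2 to 86.9 CPM after, with COL1A2 at 0. Of 5 tested fibroblast markers 3 were lower (PDGFRA, LUM and COL3A1) and 1 higher, COL1A1, which went from 11.6 ± 0.83 to 34.1 ± 4.90 CPM (SD, n = 4). The 7 endothelium markers summed to 4.69 to 11.4 CPM before and 8.1 to 22.8 CPM after, with KDR and CLDN5 at 0. PECAM1 and VWF were the tested genes of the list, and both were higher over both lines. Neither was called within Z2flag (log2 change 0.13, edgeR adjusted p = 0.825 for PECAM1, and 1.69, 0.0657 for VWF). VWF passed the filter only through the postconfluent libraries. The higher count ran from 0 to 2 under the alternatives. It was 1 on dropping the first subconfluent Z1flag or the second postconfluent Z2flag library, among others, and 0 without both Z1flag libraries numbered 1. The part of these markers in the class I values was not tested.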

How the data were processed

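The deposited values are raw counts per gene for 8 strand-specific, rRNA-depleted libraries; per the submitters' processing notes the authors used STAR 2.5.2b, SAMtools, HTSeq and hg38. Annotation, HTSeq mode and strand setting: not given in the sources used here. Unassigned read classes were left out of library sizes. Positions and exon lengths came from GENCODE v29 (58039 of the IDs).

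The main test was edgeR's quasi-likelihood F test (edgeR 4.0.16 in R 4.3.3, TMM scaling, robust; filterByExpr, minimum count 10, minimum total 15). All 8 libraries entered 1 model of 4 group means, which left 4 residual degrees of freedom. The Benjamini-Hochberg adjustment covered 18240 genes (threshold 0.05). Scripts were tested on simulated data. Members and lists were chosen with earlier results of these data known. From each list, up to 3 genes with the smallest adjusted p over both lines and a mean of at least 1 CPM were named, plus the first of the other direction. Alternatives were other scalings, DESeq2 1.42.0, limma voom 3.58.1, filters, a replicate block, summed heavy chain rows and leaving out each library. Counting intervals cover counting error only.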

Additional observations from a re-analysis of the deposited data

Results flagged for a closer look

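In each state the 4 libraries of each of the 9 genes were checked for a value that stands apart from the other 3 (Dixon's test), which is 18 checks. Chance alone marks about 1 in 20 groups of 4 values drawn from 1 population, and 3 of the checks were marked. Each check pools 2 libraries of each line, and the checks share the same 8 libraries, so that rate may not hold here. TAP1 stood at 2.02 CPM in subconfluent Z1flag replicate 2, where the other subconfluent libraries stood at 1.52 to 1.58 CPM. TAPBP stood at 77.8 CPM in postconfluent Z2flag replicate 2, where the others stood at 71.8 to 72.5 CPM. NLRC5 stood at 6.28 CPM in postconfluent Z2flag replicate 1, where the others stood at 3.37 to 3.55 CPM.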

How the results depend on the processing

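The 8 genes called higher gave 24 calls over the lines and their mean. Of 392 values under the alternatives other than summed heavy chain rows, 384 kept their call, 8 lost it in the same direction (HLA-F, B2M and TAPBP, given with each gene) and 0 changed sign. With a minimum of 5 CPM in 2 libraries, 6 of the 7 genes still tested were higher. The replicate block gave 8 higher and 0 lower in each comparison. The titles number the libraries as experiments without saying that an experiment spans groups. Deviations of same-numbered libraries correlated from -0.18 to 0.178 across genes, so the numbers were not taken as pairs. Upper-quartile scaling moved the median of all genes from -0.01 to 0.18 and gave 6248 genes higher and 3822 lower, against 5076 and 5021.

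Values that were not called changed sign. TAP2 in Z1flag was 0.102 with upper-quartile scaling and 0.0239 with the 5 CPM minimum. TAP2 in Z2flag was 0.0491 with RLE scaling, 0.147 with upper-quartile scaling, 0.0494 with DESeq2, 0.0853 with the 5 CPM minimum, 0.0531 with that line alone and 0.0377 without the Z1flag libraries numbered 1. Over both lines TAP2 was 0.124 with upper-quartile scaling and 0.0546 with the 5 CPM minimum.
Leaving out 1 library at a time gave TAP2 -0.221 to -0.00499 in Z1flag, -0.0457 to 0.144 in Z2flag and -0.0944 to 0.0339 over both lines, and differences between lines of -0.378 to 0.501 for HLA-B, -0.549 to 0.0689 for HLA-C, -0.174 to 0.363 for HLA-E and -1.70 to 3.96 for HLA-F.
The difference between lines for HLA-B was -0.0168 with upper-quartile scaling, -0.00521 with voom, -0.000367 with the 5 CPM minimum, -0.0670 with HLA-B and HLA-C summed and -0.0423 with the 4 heavy chains summed, which is also the value for HLA-E and HLA-F there. For HLA-E it was -0.0130 with upper-quartile scaling. Without the Z1flag libraries numbered 1 it was 0.0734 for HLA-C and -0.615 for HLA-F. The cause was not tested. Low counts of HLA-F and NLRC5 limit their precision. The pathway and ratio alternatives were chosen after seeing the data.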
